A study of Mus musculus with 16 samples.

Results

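The 31 genes described here encode proteins that copy DNA or carry a cell through mitosis, and most of them are transcribed mainly in dividing cells. They were taken as a fixed list of proliferation genes by symbol, and all 31 were found among the 36528 gene models of the deposited files. The libraries are poly(A) RNA-seq of mouse retina, collected 3 days after crush of the optic nerve, which severs the axons of the retinal ganglion cells. The mice received the vehicle MCT or GNE-3511, a small molecule directed at DLK (dual leucine zipper kinase), which relays the signal of axon injury to the cell body. Doses of 75 mg/kg were given 60 h and again 68 h after the injury. The 4 groups are uncrushed retina with vehicle (uncrushed vehicle, n = 3), crushed retina with vehicle (crushed vehicle, n = 3), uncrushed retina with inhibitor (uncrushed DLKi, n = 5) and crushed retina with inhibitor (crushed DLKi, n = 5). The labels give no strain, age or sex and do not say which retinas come from 1 animal, and the spread that p-values measure here is that among the samples, which may be partly technical. A further limit of the model is that retina was taken whole, so fewer cells of a type and less RNA per cell cannot be told apart.

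The libraries held 22354108 to 44745128 counted reads each. Rhodopsin, the rod photopigment, took 3.08% to 4.29% of the reads in every library and mitochondrial genes took 2.02% to 4.54%. The 31 genes together took 168 to 221 CPM (reads scaled to library size), and Rrm1, Ccna2 and Bub1b alone held 50.8% to 63% of these. Some libraries stand apart. The shallowest were uncrushed vehicle replicate 1 and crushed vehicle replicate 3, with 22354108 and 25391530 reads. Lens transcripts were abundant in uncrushed DLKi replicates 5 and 3 and uncrushed vehicle replicate 2, where 11 lens markers summed to 245 to 512 nRPKM. The unit nRPKM is the authors' RPKM, reads scaled to gene length and sequencing depth, after a size factor per library.

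In a dividing cell the MCM2 to MCM7 proteins form the helicase that unwinds DNA, PCNA is the sliding clamp that holds the polymerases on it, and ribonucleotide reductase and thymidylate synthase supply the nucleotides. Mitosis is then driven by cyclin-dependent kinase 1 with the A and B cyclins and ended by the anaphase-promoting complex, which CDC20 activates and UBE2C serves. Neurons of the adult mouse retina do not divide, Müller glia seldom do, and resident microglia divide after injury. Many of these genes share promoter elements. The E2F site is common in genes of DNA replication. The cell cycle genes homology region (CHR), often with a CCAAT box upstream, is common in genes of mitosis and is bound by the DREAM and MuvB complexes.

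The promoters show how these elements fall by role. RefSeq promoter windows of GRCm38.p6, 250 bases before to 50 after the start, were found for 27 of the 31 genes; those of Aurkb, Ccna2, Mcm4 and Tpx2 were not used here. Both strands were searched for CHR as TTTGAA or TTCGAA, for E2F as TTTGGCGC, TTTCGCGC or TTCGCGCC, and for CCAAT, counting matches that overlap. A CHR match was found in 16 of the 27 (59.3%), against 21.7% of the 27025 genes with such a window. By role, it was found in 2 of 9 genes of DNA replication, 4 of 5 of the mitotic cyclin and anaphase genes, 5 of 7 of the chromosome and kinetochore genes and 5 of 6 of the spindle genes. An E2F match was found in 5 of the 27 (18.5%), against 1.35% of all genes, and 4 of these 5 were genes of DNA replication (Mcm3, Mcm5, Mcm6 and Mcm7; the fifth was Cdk1). CCAAT was found in 24 of the 27 (88.9%), against 41.1% of all genes. These are matches of letters and not sites shown to be bound. For Mcm5, Mcm6, Aurka, Kif11 and Kif23, bases shortly after the start were not found unbroken in an annotated transcript, so these starts are less certain.

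The stretches before the start of 6 genes are printed because 4 of them (Top2a, Mki67, Ube2c and Cdc20) have a CHR match there and 2 (Rrm2 and Mcm3) have none, while all 6 were higher after crush in the test on all 16 libraries. Sequence inside a RefSeq gene is left out, which removes the 3′ end of the stretches of Top2a and Mki67 and leaves 190 and 129 bases. Positions given below are counted from the start used for the promoter window. For Top2a and Mki67 that start lies inside the RefSeq gene, beyond the printed end. Each is written 5′ to 3′ on the strand of the gene, with CHR and CCAAT matches of either strand in capitals (TTCAAA and ATTGG are the reverse complements of TTTGAA and CCAAT).
Top2a (chr11:99024200-99024389, reverse strand): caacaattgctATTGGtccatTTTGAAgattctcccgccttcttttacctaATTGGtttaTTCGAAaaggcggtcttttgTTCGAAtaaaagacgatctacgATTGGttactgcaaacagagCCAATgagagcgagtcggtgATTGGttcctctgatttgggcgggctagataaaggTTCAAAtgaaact
Mki67 (chr7:135716451-135716579, reverse strand): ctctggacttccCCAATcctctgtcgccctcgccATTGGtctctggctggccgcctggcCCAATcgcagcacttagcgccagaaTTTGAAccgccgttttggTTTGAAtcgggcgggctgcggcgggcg
Ube2c (chr2:164769729-164769928, forward strand): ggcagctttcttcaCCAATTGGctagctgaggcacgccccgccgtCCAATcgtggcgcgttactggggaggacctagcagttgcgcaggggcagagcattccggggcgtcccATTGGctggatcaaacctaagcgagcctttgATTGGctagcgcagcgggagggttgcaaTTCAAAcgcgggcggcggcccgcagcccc
Cdc20 (chr4:118437344-118437543, reverse strand): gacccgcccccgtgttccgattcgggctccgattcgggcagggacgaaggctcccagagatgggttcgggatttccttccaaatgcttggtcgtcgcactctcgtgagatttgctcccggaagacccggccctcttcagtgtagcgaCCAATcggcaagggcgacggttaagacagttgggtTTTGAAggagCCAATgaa
Rrm2 (chr12:24708054-24708253, forward strand): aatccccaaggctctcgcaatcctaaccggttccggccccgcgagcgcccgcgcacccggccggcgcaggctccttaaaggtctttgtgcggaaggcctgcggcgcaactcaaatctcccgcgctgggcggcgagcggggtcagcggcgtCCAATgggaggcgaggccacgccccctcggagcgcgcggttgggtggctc
Mcm3 (chr1:20820313-20820512, reverse strand): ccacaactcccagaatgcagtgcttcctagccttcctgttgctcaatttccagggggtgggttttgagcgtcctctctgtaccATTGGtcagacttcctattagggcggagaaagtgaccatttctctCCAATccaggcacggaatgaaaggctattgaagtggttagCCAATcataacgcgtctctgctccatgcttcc
Top2a had CHR matches 179, 140, 120 and 23 bases before the start, the last on the other strand. Mki67 had them at 116 and 98 bases, Cdc20 at 18 bases and Ube2c at 29 bases, the last on the other strand. In Ube2c a pair of CCAAT matches on opposite strands overlaps at 186 and 183 bases before the start.

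Levels of the 31 genes in retina spanned nearly the whole range from absence to moderate expression. By mean nRPKM over the 16 libraries, Ccna2 (cyclin A2) was highest at 11.8, followed by Rrm1 at 8.13 and Bub1b at 7.67. Pcna and the 6 Mcm genes lay between 1.09 (Mcm3) and 3.66 (Pcna), and 10 genes lay between 0.264 and 0.953. The other 11, among them Top2a, Mki67, Rrm2, Ube2c, Cdk1 and Aurkb, lay between 0.0156 and 0.181. Ccnb1 (cyclin B1) had 23 reads over all 16 libraries. It was the only member that missed the filter of about 10 reads in at least 3 libraries, so 30 were tested. Partners in the cycle stood far apart in level per length, with Ccna2 at 11.8 nRPKM beside Cdk1 at 0.150, and Bub1b at 7.67 nRPKM beside Bub1 at 0.0404.

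Some counts are less certain than others. Exons of another gene overlapped those of 8 members and covered over 25% of the exon length of 0. The largest shares were 22.8% in Ube2c (with Tnnc2), 12.6% in Mcm7 and 12.5% in Ccna2 (with Exosc9). The library kit does not mark strand, so reads there cannot be assigned. RefSeq names pseudogene copies of 5 members (Tyms, Pcna, Ccnb1, Ccnb2 and Aurkb), and reads that align to a gene and its copy equally were not counted.

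Crush raised a subset of the 31 genes, and the largest changes were in genes that stood near 0 in uncrushed retina. With vehicle, 4 of the 30 tested genes were called higher (Top2a, Rrm2, Mki67 and Mcm3) and 0 lower, where 1.77% of all 19391 tested genes were called higher. With inhibitor, 7 were called higher (Top2a, Mki67, Cdc20, Aurkb, Pcna, Cenpe and Rrm2) and 0 lower, where 3.29% of all genes were called higher. Over both drugs, that is for the mean of the crush effects with vehicle and with inhibitor, 11 were called higher and 0 lower, where 5.22% of all genes were called higher. Of all 19391 tested genes 167, 396 and 627 were called lower in these 3 comparisons, so 0 lower among 30 says little on its own. A gene was called when its adjusted p from edgeR's quasi-likelihood test, adjusted by Benjamini-Hochberg over all tested genes, was at most 0.05. At an unadjusted p under 0.05 the counts were 10, 16 and 18. The share of all tested genes at that p is not given here, so these counts have no background. DESeq2 called 5, 8 and 11 members, where it called 702, 1289 and 1887 of all genes in either direction. Rrm2, Ube2c, Aurkb and Bub1 reached the filter's minimum in none of the 8 uncrushed libraries, and Top2a and Mki67 in 1. These passed through the crushed libraries, where they are high, so their calls add little support. Called members that reached that minimum in at least 3 uncrushed libraries were Mcm3 with vehicle and Cdc20, Pcna and Cenpe with inhibitor. Over both drugs they were Mcm3, Cenpe, Mcm2, Cdc20, Kif23 and Tpx2. Only Top2a stayed called with vehicle without uncrushed vehicle replicate 2 or 3 or crushed vehicle replicate 1, and with inhibitor 4 members were called without crushed DLKi replicate 1 or 2. Without the filter, all 31 genes had a median log2 change of 0.36 with vehicle, 0.35 with inhibitor and 0.32 over both, where the median of all 29449 genes with a read was 0.00 with vehicle and with inhibitor. In 4 members (Rrm2, Mcm2, Top2a and Mki67) every one of the 8 crushed libraries lay above every one of the 8 uncrushed ones in nRPKM, which held for 1.84% of all tested genes.

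**Figure D1:**
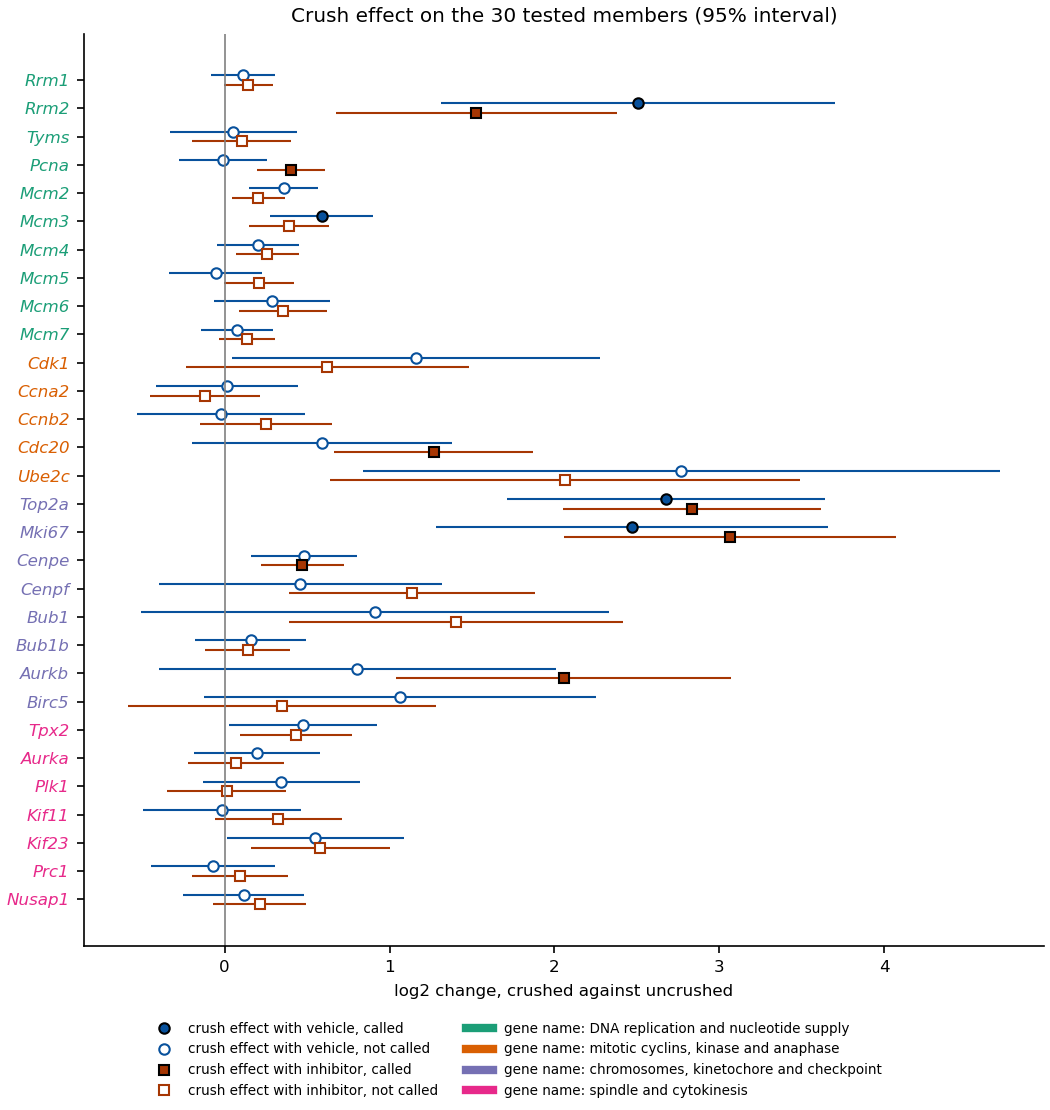
Log2 change of the 30 tested genes in crushed against uncrushed retina (x axis), with vehicle (circles) and with inhibitor (squares); filled symbols were called and lines are 95% intervals. Top2a, Mki67, Rrm2 and Ube2c with vehicle, and these and Aurkb with inhibitor, sit furthest to the right, and every Mcm gene and spindle gene sits below 0.6.

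Among the genes of DNA replication and nucleotide supply, Rrm2, Mcm3 and Mcm2 rose over both drugs. Rrm2 (Entrez 20135, GRCm38 chromosome 12, 24708254 to 24714146) encodes the small subunit of ribonucleotide reductase, which is made in S phase. Its level was 0.0529, 0.0504 and 0.0337 nRPKM in uncrushed vehicle and 0.0353, 0.0728, 0.0816, 0.0642 and 0.0866 in uncrushed DLKi. In crushed retina it was 0.351, 0.237 and 0.198 nRPKM with vehicle and 0.452, 0.108, 0.180, 0.144 and 0.118 with inhibitor. The crushed and uncrushed libraries did not overlap, although they rest on 10 to 38 and 3 to 8 reads, and crushed DLKi replicate 1 stood well above its group. Rrm2 passed the filter only through the crushed libraries. The log2 change was 2.51 (SE 0.57) with vehicle, edgeR adjusted p = 0.02, 1.52 (SE 0.40) with inhibitor, edgeR adjusted p = 0.0323, and 2.02 (SE 0.35) over both, edgeR adjusted p = 0.000786. The vehicle call ended without uncrushed vehicle replicate 2 or 3 or crushed vehicle replicate 1 (edgeR adjusted p = 0.0884, 0.103 and 0.105). The inhibitor call ended without uncrushed DLKi replicate 1, 2, 3 or 4 or crushed DLKi replicate 1 (edgeR adjusted p = 0.0801, 0.0661, 0.0591, 0.0772 and 0.0953), and without that last library the change was 0.99. The call over both drugs held without each library in turn. Rrm1, the large subunit of the same enzyme, did not follow. Its level was 7.04 to 8.09 nRPKM in uncrushed vehicle, 7.84 to 8.55 in crushed vehicle, 6.63 to 8.81 in uncrushed DLKi and 8.31 to 9.17 in crushed DLKi. Its change over both drugs was 0.13 (95% interval 0.01 to 0.25, edgeR adjusted p = 0.252).

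The 6 Mcm genes, the helicase subunits, all had positive estimates over both drugs, and the rise was small where it was called. Mcm3 (Entrez 17215, chromosome 1, 20802966 to 20820312) stood at 1.09, 0.930 and 1.00 nRPKM in uncrushed vehicle and 1.49, 1.46 and 1.57 in crushed vehicle. It stood at 1.01, 0.866, 0.825, 0.800 and 0.785 nRPKM in uncrushed DLKi and 1.23, 1.02, 0.995, 1.37 and 0.988 in crushed DLKi. With vehicle the groups were clearly apart, and with inhibitor 2 crushed libraries lay below the highest uncrushed one. The log2 change was 0.59 (SE 0.15) with vehicle, edgeR adjusted p = 0.0403, 0.39 (SE 0.12) with inhibitor, edgeR adjusted p = 0.0613, and 0.49 (SE 0.09) over both, edgeR adjusted p = 0.00201. The vehicle call ended when any vehicle library but uncrushed replicate 1 was left out (edgeR adjusted p = 0.198 and 0.119 without uncrushed replicates 2 and 3, and 0.112, 0.0851 and 0.116 without crushed replicates 1 to 3). It also ended without uncrushed DLKi replicate 2, 3 or 4 (edgeR adjusted p = 0.056, 0.0535 and 0.054), and the call over both drugs held without each library in turn.

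Mcm2 (Entrez 17216, chromosome 6, 88883474 to 88898780) stood at 2.54, 3.03 and 3.11 nRPKM in uncrushed vehicle and 2.95, 3.18, 3.18, 3.20 and 2.69 in uncrushed DLKi. In crushed retina it stood at 3.74, 3.93 and 3.46 nRPKM with vehicle and 3.65, 3.60, 3.31, 3.74 and 3.20 with inhibitor. All 8 crushed libraries were above all 8 uncrushed ones, at 3.204 against 3.203 nRPKM at the closest. Its log2 change over both drugs was 0.28 (SE 0.06, edgeR adjusted p = 0.00638), and it was not called with vehicle alone (0.36, edgeR adjusted p = 0.0681) or with inhibitor alone (0.20, edgeR adjusted p = 0.165). Mcm4, Mcm5, Mcm6 and Mcm7 were not called, with changes over both drugs of 0.23, 0.08, 0.32 and 0.11.

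Pcna (Entrez 18538, chromosome 2, 132249286 to 132253180), the sliding clamp, was called with inhibitor and not with vehicle. It stood at 3.75, 3.79 and 3.74 nRPKM in uncrushed vehicle and 3.65, 3.89 and 3.66 in crushed vehicle. With inhibitor it stood at 3.51, 3.05, 3.09, 3.26 and 2.61 nRPKM in uncrushed and 4.36, 4.77, 3.56, 4.04 and 3.77 in crushed retina. With vehicle the groups overlapped, while with inhibitor all 5 crushed libraries were above all 5 uncrushed ones. The log2 change was -0.01 (SE 0.13) with vehicle, edgeR adjusted p = 0.999, and 0.40 (SE 0.10) with inhibitor, edgeR adjusted p = 0.0178. The difference of these crush effects was 0.41 (95% interval 0.08 to 0.75) with an unadjusted p of 0.0192 and an edgeR adjusted p = 1, so a difference between the drugs did not hold. The inhibitor call ended without crushed DLKi replicate 1 or 2 (edgeR adjusted p = 0.0565 and 0.0622). Tyms (thymidylate synthase) had a change of 0.08 over both drugs and was not called.

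**Figure D2:**
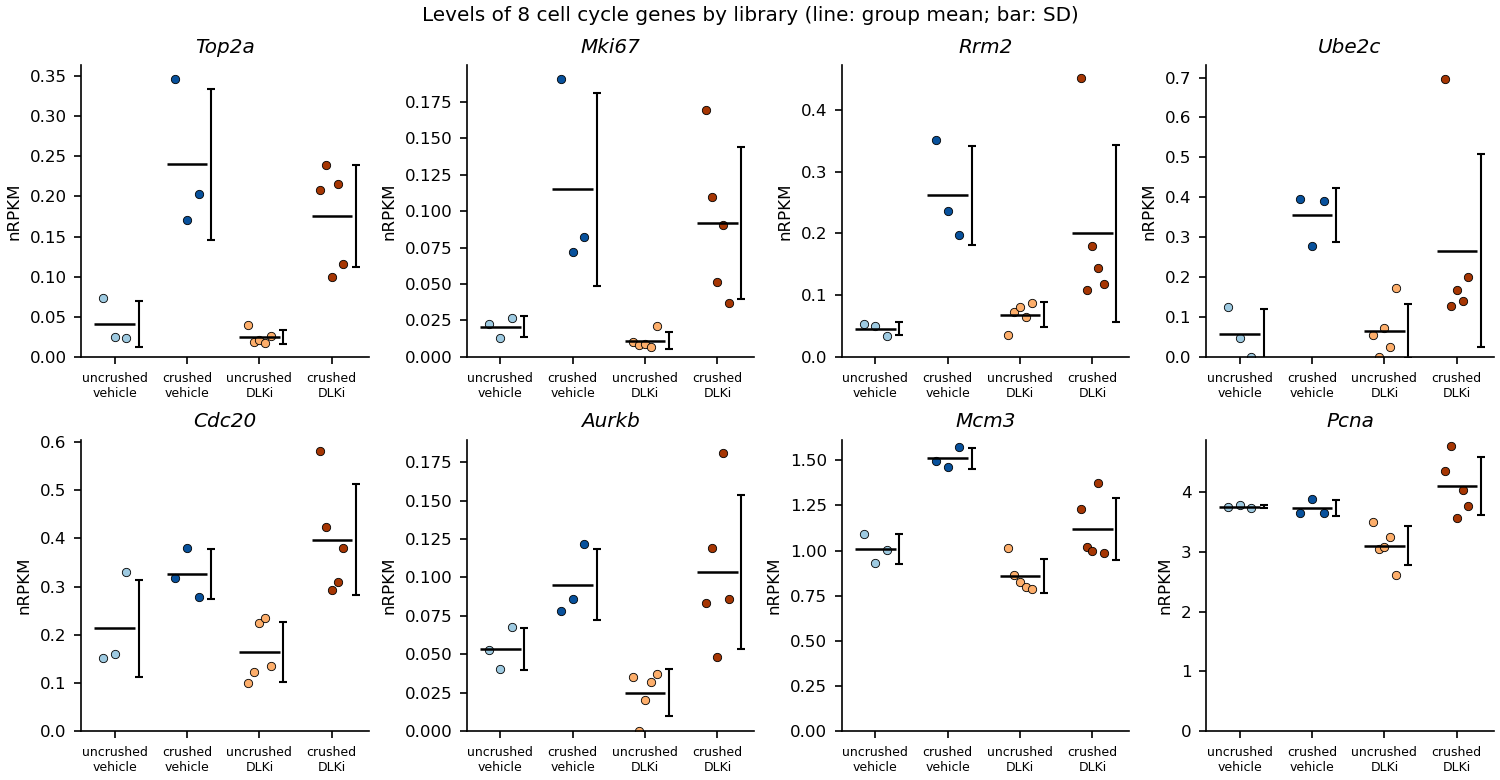
nRPKM of 8 genes (y axes, from 0) in each of the 16 libraries by group; lines are group means and bars the SD. The crushed libraries of Top2a, Mki67 and Rrm2 lie above all uncrushed ones, and for Pcna the crushed and uncrushed libraries overlap with vehicle and do not with inhibitor.

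Of the mitotic cyclins, their kinase and the anaphase genes, Ube2c and Cdc20 rose over both drugs and the cyclins were not called. Ube2c (Entrez 68612, chromosome 2, 164769929 to 164772902) encodes the ubiquitin-conjugating enzyme of the anaphase-promoting complex. It had 3, 2 and 0 reads in uncrushed vehicle and 2, 0, 3, 1 and 6 in uncrushed DLKi, against 13, 11 and 11 in crushed vehicle and 25, 5, 6, 5 and 8 in crushed DLKi. Ube2c passed the filter only through the crushed libraries. Uncrushed DLKi replicate 5, at 0.174 nRPKM, overlapped with 3 crushed DLKi libraries at 0.127, 0.141 and 0.168. The log2 change was 2.42 (SE 0.57) over both drugs, edgeR adjusted p = 0.00972. It was 2.77 with vehicle (edgeR adjusted p = 0.164) and 2.06 with inhibitor (edgeR adjusted p = 0.0985), neither of them called. Cdc20 (Entrez 107995, chromosome 4, 118432901 to 118437343), the activator of the same complex, stood at 0.151, 0.160 and 0.330 nRPKM in uncrushed and 0.318, 0.381 and 0.279 in crushed vehicle retina. With inhibitor it stood at 0.101, 0.122, 0.224, 0.235 and 0.136 nRPKM in uncrushed and 0.581, 0.423, 0.293, 0.309 and 0.380 in crushed retina. The groups overlapped with vehicle and did not with inhibitor. Its change was 0.59 (SE 0.37, edgeR adjusted p = 0.728) with vehicle, 1.27 (SE 0.29, edgeR adjusted p = 0.0113) with inhibitor and 0.93 (SE 0.24, edgeR adjusted p = 0.0166) over both. The inhibitor call held without each library in turn, and the call over both drugs ended without uncrushed or crushed vehicle replicate 2 (edgeR adjusted p = 0.065 and 0.0575).

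Ccna2, the most abundant member, stood at 14.7, 10.8 and 9.44 nRPKM in uncrushed vehicle, 11.4, 10.4 and 13.4 in crushed vehicle, 10.8, 10.1, 13.1, 9.70 and 17.8 in uncrushed DLKi and 11.02, 9.55, 12.01, 10.2 and 13.6 in crushed DLKi. The groups overlapped throughout, and its change over both drugs was -0.05 (95% interval -0.32 to 0.22). Ccnb2 (cyclin B2) had a change of 0.11, not called. Cdk1, the kinase that the cyclins activate, had 5 to 40 reads in crushed and 9 to 20 in uncrushed libraries and a change of 0.89 (SE 0.33, edgeR adjusted p = 0.134).

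Over both drugs, the 2 largest changes of the tested members were in chromosome genes, Mki67 and Top2a. Top2a (Entrez 21973, chromosome 11, 98992947 to 99024199) encodes DNA topoisomerase II alpha, which untangles chromosomes before they separate. It stood at 0.0735, 0.0252 and 0.0234 nRPKM in uncrushed vehicle and 0.0393, 0.0190, 0.0213, 0.0178 and 0.0258 in uncrushed DLKi. In crushed retina it stood at 0.347, 0.170 and 0.203 nRPKM with vehicle and 0.208, 0.239, 0.0997, 0.216 and 0.116 with inhibitor. No crushed library came as low as the highest uncrushed one, and the reads were 20 to 64 against 4 to 10. Top2a reached the filter's minimum in only 1 uncrushed library. The log2 change was 2.68 (SE 0.46) with vehicle, edgeR adjusted p = 0.00238, 2.83 (SE 0.37) with inhibitor, edgeR adjusted p = 0.000124, and 2.75 (SE 0.29, 6.75-fold) over both, edgeR adjusted p = 6.3e-06. All these calls held in every alternative that was run, although the vehicle change ran from 2.30 without crushed vehicle replicate 1 to 3.27 without uncrushed vehicle replicate 1.

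Mki67 (Entrez 17345, chromosome 7, 135689784 to 135716450) encodes Ki-67, the protein most often stained to mark dividing cells. It stood at 0.0228, 0.0131 and 0.0267 nRPKM in uncrushed vehicle and 0.0102, 0.00785, 0.00880, 0.00692 and 0.0213 in uncrushed DLKi. In crushed retina it stood at 0.191, 0.0718 and 0.0819 nRPKM with vehicle and 0.169, 0.110, 0.0516, 0.0908 and 0.0370 with inhibitor. Crushed and uncrushed libraries did not overlap, on 16 to 68 and 3 to 11 reads, and the crushed ones ranged from 0.0370 to 0.191 nRPKM among themselves. Mki67 reached the filter's minimum in only 1 uncrushed library. The log2 change was 2.47 (SE 0.56) with vehicle, edgeR adjusted p = 0.0219, 3.06 (SE 0.48) with inhibitor, edgeR adjusted p = 0.000568, and 2.77 (SE 0.37) over both, edgeR adjusted p = 7.26e-05. The vehicle call ended without uncrushed vehicle replicate 2 or 3 or crushed vehicle replicate 1 (edgeR adjusted p = 0.148, 0.0617 and 0.165), with a change of 1.88 without the last, and the others held without each library in turn.

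Aurkb (Entrez 20877, chromosome 11, 69045624 to 69051664), the kinase of the chromosomal passenger complex, had 3, 4 and 6 reads in uncrushed vehicle, 6, 8 and 8 in crushed vehicle, 3, 0, 2, 3 and 3 in uncrushed DLKi and 7, 11, 4, 15 and 8 in crushed DLKi. In nRPKM the groups were 0.0404 to 0.0676 and 0.0782 to 0.122 with vehicle, and 0 to 0.0372 and 0.0480 to 0.181 with inhibitor, so that crushed lay above uncrushed within each drug. Aurkb passed the filter only through the crushed libraries. Its change was 2.06 (SE 0.48, edgeR adjusted p = 0.0148) with inhibitor, 0.80 (SE 0.57, edgeR adjusted p = 0.789) with vehicle and 1.43 (SE 0.38, edgeR adjusted p = 0.0211) over both. The inhibitor call of Aurkb ended without the 3 libraries richest in lens transcripts. The call over both drugs ended without uncrushed vehicle replicate 2 or crushed vehicle replicate 3 (edgeR adjusted p = 0.0703 and 0.0619). Cenpe (Entrez 229841, chromosome 3, 135212563 to 135273540), the kinetochore motor, stood at 0.443, 0.428 and 0.537 nRPKM in uncrushed and 0.614, 0.579 and 0.776 in crushed vehicle retina. With inhibitor it stood at 0.391, 0.343, 0.313, 0.421 and 0.463 nRPKM in uncrushed and 0.544, 0.547, 0.481, 0.547 and 0.545 in crushed retina. Crushed lay above uncrushed within each drug. Its change was 0.48 (SE 0.15, edgeR adjusted p = 0.138) with vehicle, 0.47 (SE 0.12, edgeR adjusted p = 0.0243) with inhibitor and 0.48 (SE 0.10, edgeR adjusted p = 0.00335) over both. The inhibitor call ended without uncrushed DLKi replicate 2 or 3 (edgeR adjusted p = 0.0733 and 0.0778) or crushed DLKi replicate 1, 2, 4 or 5 (edgeR adjusted p = 0.0622, 0.0598, 0.0546 and 0.0518).

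The other chromosome and checkpoint genes were not called. Bub1b, which encodes the checkpoint protein BubR1, stood at 7.81, 8.58 and 6.57 nRPKM in uncrushed vehicle, 9.93, 7.24 and 8.42 in crushed vehicle, 5.24, 6.99, 6.84, 8.31 and 7.94 in uncrushed DLKi and 6.32, 8.29, 7.36, 9.13 and 7.72 in crushed DLKi. The groups overlapped, and its change over both drugs was 0.15 (95% interval -0.06 to 0.36). Bub1 (a checkpoint kinase), Cenpf (a kinetochore protein) and Birc5 (survivin, of the passenger complex) had changes of 1.16, 0.80 and 0.71 over both drugs, on at most 28 reads in any library, with edgeR adjusted p = 0.11, 0.0852 and 0.34.

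Of the spindle and cytokinesis genes, Kif23 and Tpx2 rose over both drugs. Kif23 (Entrez 71819, chromosome 9, 61917277 to 61946810), a motor of the central spindle, stood at 0.115, 0.110 and 0.0855 nRPKM in uncrushed and 0.155, 0.140 and 0.157 in crushed vehicle retina. With inhibitor it stood at 0.0640, 0.0840, 0.0886, 0.0639 and 0.108 nRPKM in uncrushed and 0.148, 0.129, 0.111, 0.0980 and 0.122 in crushed retina. Only crushed DLKi replicate 4 lay below an uncrushed library of its drug. Tpx2 (Entrez 72119, chromosome 2, 152847964 to 152895321), the spindle assembly factor that activates Aurora A, stood at 0.229, 0.297 and 0.219 nRPKM in uncrushed and 0.383, 0.333 and 0.327 in crushed vehicle retina. With inhibitor it stood at 0.312, 0.291, 0.250, 0.262 and 0.192 nRPKM in uncrushed and 0.315, 0.405, 0.359, 0.421 and 0.268 in crushed retina, where 1 crushed library lay among the uncrushed ones. The changes over both drugs were 0.57 (SE 0.16, edgeR adjusted p = 0.0361) for Kif23 and 0.45 (SE 0.13, edgeR adjusted p = 0.042) for Tpx2. Both calls were near the threshold. That of Kif23 ended without any 1 of 11 libraries (all but uncrushed vehicle replicate 1, uncrushed DLKi replicates 3 and 5 and crushed DLKi replicates 3 and 4), with edgeR adjusted p of up to 0.119. That of Tpx2 ended without any 1 of 11 (all but uncrushed vehicle replicate 2, uncrushed DLKi replicates 1 and 2 and crushed DLKi replicates 1 and 5), with edgeR adjusted p of up to 0.12.

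Prc1, a microtubule bundler and the most abundant spindle gene of the list, stood at 1.33, 0.970 and 0.936 nRPKM in uncrushed vehicle, 1.21, 0.882 and 0.972 in crushed vehicle, 0.656, 1.01, 0.837, 0.809 and 1.03 in uncrushed DLKi and 0.850, 0.856, 0.905, 0.931 and 1.07 in crushed DLKi. The groups overlapped, with a change of 0.01 (95% interval -0.23 to 0.25) over both drugs. Aurka, Plk1, Kif11 and Nusap1 had changes of 0.13, 0.18, 0.15 and 0.17 and were not called.

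The largest crush effects were in the genes of lowest level. The medians of the higher classes showed no graded order, while the largest change in each class fell with level. Genes of like level outside the list were not compared. Over both drugs and without the filter, the 11 genes with a mean under 0.2 nRPKM had log2 changes of 0.57 to 2.77 with a median of 1.16. The 10 genes from 0.2 to 1 nRPKM had changes of 0.01 to 0.93 with a median of 0.16, the 7 from 1 to 5 nRPKM had 0.08 to 0.49 with a median of 0.23, and the 3 above 5 nRPKM (Rrm1, Ccna2 and Bub1b) had -0.05 to 0.15. The folds of the lowest class rest on few reads, 4 to 10 against 20 to 64 per library for Top2a.

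**Figure D3:**
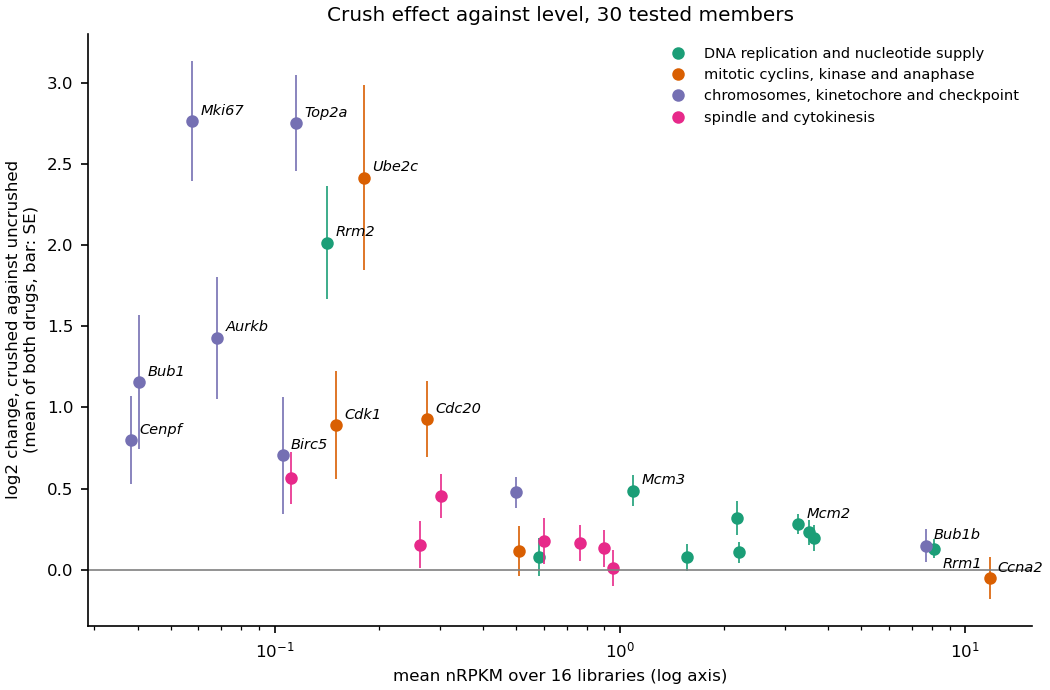
Log2 change of the 30 tested genes over both drugs (y axis, bars are SE) against mean nRPKM over the 16 libraries (x axis, log axis), coloured by role. The changes above 1 all belong to genes under 0.2 nRPKM, and Rrm1, Ccna2 and Bub1b at the right lie between -0.05 and 0.15.

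The inhibitor, compared with vehicle, left no member called. In crushed retina 0 of 30 were called, where 0.505% of all tested genes were called in either direction. In that comparison 3 had an unadjusted p under 0.05 (Mcm3, Mcm7 and Cenpe, all lower). DESeq2 called 0 members, where it called 396 of all genes in either direction. The estimates ran from -0.70 to 0.43, with 9 positive and 21 negative, where 9384 of all 19391 tested genes were negative. The lowest edgeR adjusted p was 0.153, for Mcm3, at -0.43 (95% interval -0.70 to -0.16). For the genes that crush raised most, the intervals were wide: Top2a was at -0.44 (-1.13 to 0.24), Mki67 at -0.32 (-1.19 to 0.54), Rrm2 at -0.40 (-1.23 to 0.44) and Ube2c at -0.40 (-1.67 to 0.86). Each of these intervals includes 0 and also a log2 change below -1. In uncrushed retina 0 of 30 were called, where 0.629% of all tested genes were called in either direction. There 5 had an unadjusted p under 0.05 (Mcm7, Kif11, Cenpf, Pcna and Tyms, all lower). The share of all tested genes at that p is not given here for either comparison, so these counts have no background. The lowest edgeR adjusted p was 0.0985, for Mcm7, at -0.34 (95% interval -0.53 to -0.15). Of the members DESeq2 called that gene alone, where it called 622 of all genes in either direction. Mcm7 stood at 2.20 to 2.60 nRPKM in uncrushed vehicle and 1.77 to 2.16 in uncrushed DLKi, so all 5 inhibitor libraries were below all 3 vehicle ones.

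**Figure D4:**
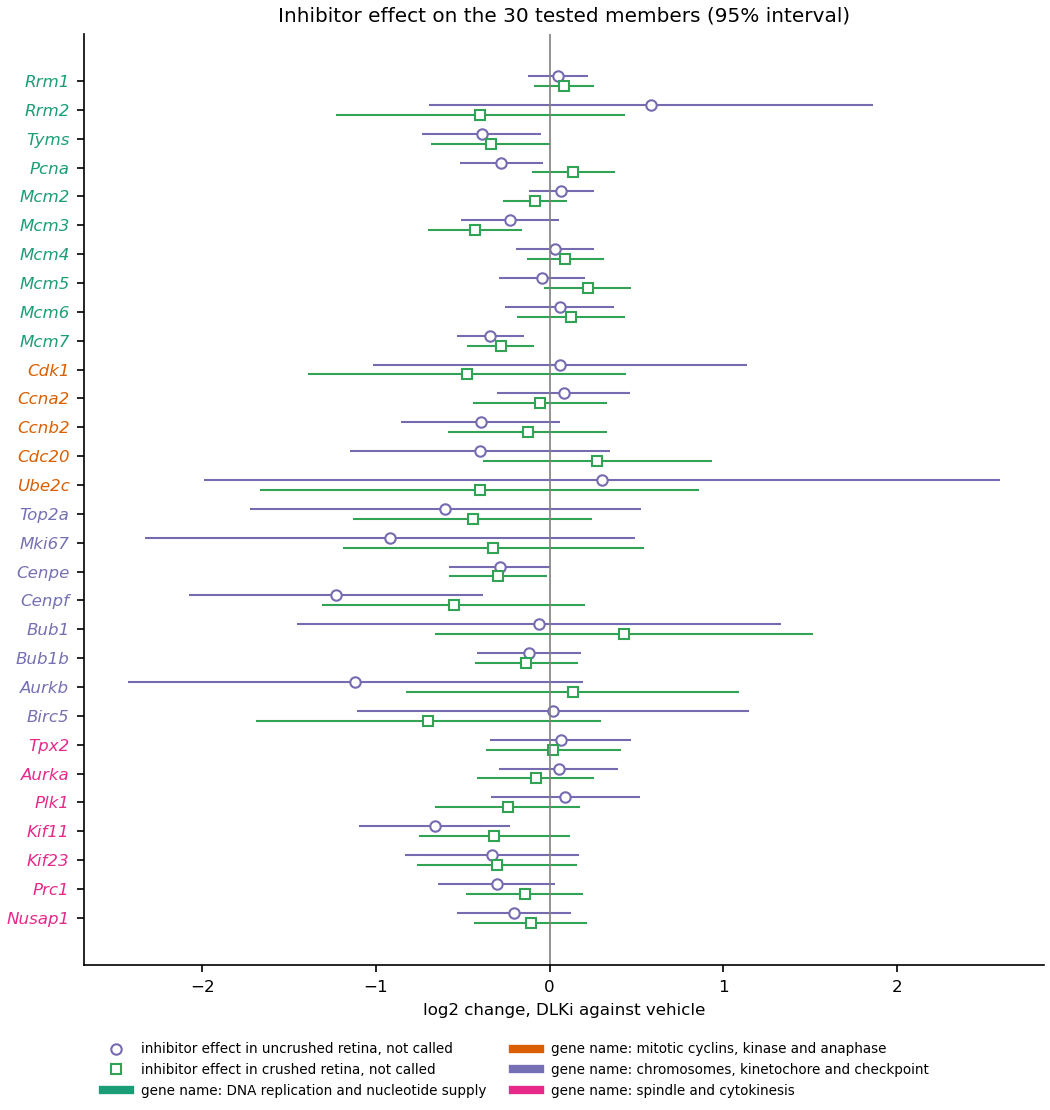
Log2 change of the 30 tested genes with inhibitor against vehicle (x axis), in uncrushed (circles) and crushed retina (squares), with 95% intervals. None was called. In crushed retina 21 of the 30 estimates lie below 0, as do those of 9384 of all 19391 tested genes. The intervals of Ube2c, the widest in both comparisons, include 0.

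Whether crush acted differently under the inhibitor was tested as the difference of the crush effects. It left 0 of 30 members called, where 0.0103% of all tested genes were called in either direction. An unadjusted p under 0.05 was found for 1 member (Pcna), and DESeq2 called 0 members, where it called 5 of all genes. The estimates ran from -0.98 (Rrm2, 95% interval -2.51 to 0.55) to 1.25 (Aurkb, -0.36 to 2.86). For Top2a the difference was 0.16 (-1.10 to 1.41) and for Mki67 0.59 (-1.04 to 2.22). The longer list of calls with inhibitor than with vehicle therefore does not show a difference between drugs, and the vehicle groups had 3 libraries each and the inhibitor groups 5.

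Other genes of the cell cycle were read from 7 lists with 141 genes, of which 133 were tested. Over both drugs 12 were called higher and 2 lower, with vehicle 1 higher and 1 lower, and with inhibitor 6 higher and 0 lower. The higher calls were 9.02%, 0.752% and 4.51% of the tested genes in that order, against 5.22%, 1.77% and 3.29% of all tested genes, so with vehicle the share was below that of all genes and with inhibitor near it. Their median log2 change over both drugs was 0.06. Among 28 genes of the replication fork, chromatin assembly and nucleotide supply, 3 rose over both drugs: Chaf1b and Asf1b, which load histones on new DNA, by 1.57 (SE 0.22, edgeR adjusted p = 0.000133) and 0.68 (SE 0.14, edgeR adjusted p = 0.00294), and the polymerase alpha subunit Pola2 by 0.29 (SE 0.08, edgeR adjusted p = 0.0386). Chaf1b was 0.0963 to 0.151 nRPKM in uncrushed and 0.265 to 0.326 in crushed vehicle retina, and 0.0397 to 0.164 against 0.322 to 0.471 with inhibitor, with no overlap. Of 18 tested licensing and firing genes, Cdt1, which loads the MCM helicase, was called at 0.40 (edgeR adjusted p = 0.0302). That is 5.56% of the list, near the 5.22% of all tested genes. Of 18 tested E2F, RB and DREAM regulators, E2f6, a repressor of the E2F family, and Lin9, a subunit of MuvB, were called at 0.32 and 0.29 (edgeR adjusted p = 0.00133 and 0.0334). The calls of Chaf1b, Asf1b and E2f6 held without each library in turn, while those of Pola2, Cdt1 and Lin9 ended without any 1 of 12, 8 and 8 libraries, with edgeR adjusted p of up to 0.122, 0.128 and 0.106.

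The clearest change among the regulators was in an inhibitor of the cycle. Cdkn1a encodes p21, which blocks cyclin-dependent kinases and is also a target of p53. It stood at 1.80, 2.20 and 2.70 nRPKM in uncrushed and 8.69, 8.41 and 7.62 in crushed vehicle retina. With inhibitor it stood at 1.94, 2.00, 2.92, 2.03 and 2.29 nRPKM in uncrushed and 5.28, 6.14, 4.95, 4.65 and 4.85 in crushed retina. Crushed was above uncrushed in each drug, and crushed DLKi lay below crushed vehicle without overlap. The log2 change with crush was 1.87 (SE 0.16, edgeR adjusted p = 2.21e-06) with vehicle and 1.21 (SE 0.12, edgeR adjusted p = 9.1e-06) with inhibitor. In crushed retina the inhibitor lowered it by a log2 change of -0.67 (SE 0.13, edgeR adjusted p = 0.0287), a call that ended without any 1 of the 3 crushed vehicle libraries or of crushed DLKi replicates 1, 3, 4 and 5 (edgeR adjusted p = 0.0583 to 0.134). The crush effects did not differ between the drugs at the threshold (-0.66, edgeR adjusted p = 1). The other 5 tested CDK inhibitors were not called for the crush effect over both drugs. Of the G1 cyclins, Ccnd3 and Ccnd1 (cyclins D3 and D1), which start the cycle, rose over both drugs by 0.25 (edgeR adjusted p = 0.00627) and 0.32 (edgeR adjusted p = 0.00944). Ccnd1 stood at 7.22 to 7.62 nRPKM in uncrushed and 8.42 to 9.52 in crushed vehicle retina. Without the 3 libraries richest in lens transcripts the call of Ccnd1 over both drugs ended (edgeR adjusted p = 0.0579). With inhibitor Ccnd1 stood at 5.34 to 7.19 nRPKM in uncrushed and 6.26 to 9.25 in crushed retina.

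Among 34 further tested kinetochore, spindle and condensin genes, Ndc80 and Kif2c rose by 1.80 (SE 0.39, edgeR adjusted p = 0.00511) and 2.29 (SE 0.51, edgeR adjusted p = 0.00697) over both drugs, and Spc25 and Kif4 fell. The higher calls were 5.88% of these 34, near the 5.22% of all tested genes. The calls of Ndc80 and Kif2c ended without the 3 libraries richest in lens transcripts (edgeR adjusted p = 0.0597 and 0.0581). Ndc80 and Spc25 are subunits of 1 kinetochore complex, and their levels differed greatly, with a mean of 0.0788 nRPKM for Ndc80 and 55.8 for Spc25. Spc25 fell by 0.25 (SE 0.06, edgeR adjusted p = 0.00851) and Kif4, a chromosome motor, by 0.73 (SE 0.18, edgeR adjusted p = 0.0126). Of 15 genes of the S-phase checkpoint and repair, Clspn (claspin) was called at 0.69 (edgeR adjusted p = 0.0409), a call that ended without any 1 of 12 libraries. That is 6.67% of the list, also near the share of all tested genes. In crushed retina the inhibitor lowered Tfdp2, a partner of E2F proteins, and the chromosome motor Kif22, with log2 changes of -0.41 and -0.58 (edgeR adjusted p = 0.0136 and 0.0301). In uncrushed retina it lowered Tfdp2 and the damage kinase Atm, with changes of -0.42 and -0.35 (edgeR adjusted p = 0.0149 and 0.0443). The Tfdp2 calls ended without crushed vehicle replicate 1 or 3 in the former comparison and without uncrushed vehicle replicate 1 or 2 or uncrushed DLKi replicate 3 or 4 in the latter. Those of Kif22 and Atm ended without any 1 of 8 and 14 libraries, with edgeR adjusted p of up to 0.188 and 0.231.

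Markers of microglia, gliosis, lens and ganglion cells differed between crushed and uncrushed retina, and those of leukocytes and vessels were not called. All 18 microglial markers were higher over both drugs at the same threshold, with a median log2 change of 0.95, and their sum was 48.2 to 51.1 nRPKM in uncrushed vehicle, 74 to 89.8 in crushed vehicle, 38.3 to 55.5 in uncrushed DLKi and 58 to 107 in crushed DLKi. All 8 crushed libraries were above all 8 uncrushed ones in that sum. Of 13 markers of infiltrating leukocytes 5 passed the filter and 0 were called. The sum of the 13 overlapped between the groups, at 4.16 to 6.30, 3.36 to 6.03, 2.51 to 5.34 and 3.48 to 7.09 nRPKM in the same order. Lyz2 made up most of that sum, with group means of 4.146, 4.175, 2.71 and 4.092 nRPKM, so the overlap says little of the other markers. Of the 13, 10 had a mean under 0.1 nRPKM, and none was at 0 in all libraries. Of 10 Müller glia markers, Vim and Crabp2 were higher and Glul and Rlbp1 lower, at 0.78, 1.03, -0.27 and -0.19, and the sum overlapped between the groups. Of 7 genes of astrocytes and gliosis 4 were called higher, with Gfap at 1.91, and of 10 endothelial and pericyte markers 0 were called. Lens markers were lower over both drugs in 7 of 10 tested, and the 3 uncrushed libraries named above had the highest sums. Without those 3 libraries the members called were 1 with vehicle (Top2a), 3 with inhibitor (Top2a, Mki67 and Cdc20) and 8 over both drugs. Calls among all genes also fell with vehicle and with inhibitor, as given in the last section, so the loss is not particular to the members. The number of all genes called over both drugs without those libraries is not given here. Of 10 ganglion cell markers 9 were lower over both drugs, with a median of -0.86, and their sum was 391 to 533 nRPKM in uncrushed vehicle, 250 to 349 in crushed vehicle, 478 to 637 in uncrushed DLKi and 317 to 387 in crushed DLKi. The part of microglia, glia, lens or ganglion cells in the changes of the 31 genes was not tested.

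**Figure D5:**
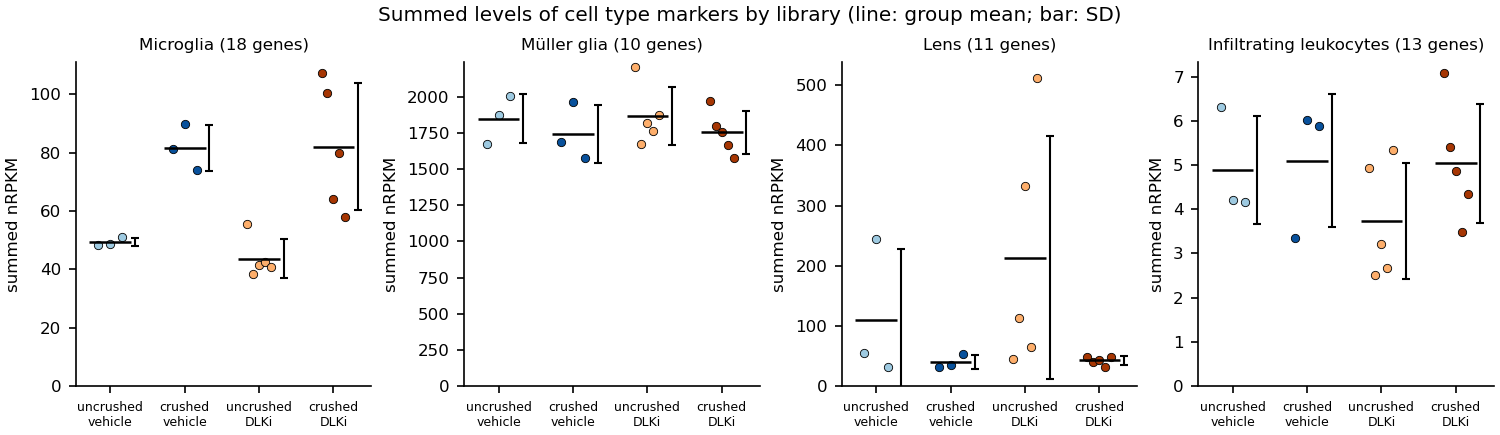
Summed nRPKM of 4 marker lists (y axes, from 0) in each of the 16 libraries by group; lines are group means and bars the SD. The microglial sums of the crushed libraries, 58 to 107, lie above those of the uncrushed ones, 38.3 to 55.5; the lens sum is high in 3 uncrushed libraries.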

How the data were processed

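Poly(A) RNA of 16 mouse retinas was sequenced as single reads of 50 bases. Counts are reads that align uniquely to each gene model, per the file headers, and nRPKM is the authors' RPKM adjusted by a size factor per library. GSNAP and GRCm38 are named in the submitters' processing notes, and other settings were not given in the sources used here. Gene identifiers were matched to RefSeq symbols for 31049 of 36528 models. Deposited counts were fitted with edgeR 4.0.16 in R 4.3.3 (TMM, filterByExpr with at least 0.291 CPM in 3 libraries, quasi-likelihood F test, 4 group means over all 16 libraries, two-sided, 19391 genes tested, Benjamini-Hochberg over all of them, called at 0.05). Levels are given as deposited nRPKM. The script was tested on simulated data. The alternatives were other scaling, filters and samples in the fit, DESeq2 1.42.0 and leaving out each library. The sets without the 2 shallowest vehicle libraries and without the 3 richest in lens transcripts, and a block by consecutive sample numbers, were chosen after seeing the data. Intervals are at 95%.

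The members and gene lists were chosen with earlier results of these data known. Values per library are given for members called in any comparison, for Mki67, Top2a, Pcna and Mcm2, and for the most abundant member of each role group. Of each further list up to 3 called genes with the smallest p, Cdkn1a and Ccnd1 were named, and Kif4 was named after its values were seen. Promoter sequences are RefSeq's (GRCm38.p6). All 16 libraries of the series were used, and any vehicle retinas beyond these were not analysed here.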

Additional observations from a re-analysis of the deposited data

Results flagged for a closer look

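Among 62 gene and group combinations of 5 libraries, 5 had a library further from the others than Dixon's 95% limit, and chance gives about 1 in 20. Crushed DLKi replicate 1 was highest for Rrm2, at 0.452 nRPKM where the other 4 lay at 0.108 to 0.180, and for Ube2c, at 0.696 nRPKM where the others lay at 0.127 to 0.201. Uncrushed DLKi replicate 1 was highest for Cdk1, at 0.180 nRPKM against 0.0816 to 0.104. Uncrushed DLKi replicate 5, the library richest in lens transcripts, was highest for Mki67, at 0.0213 nRPKM against 0.00692 to 0.0102. Crushed DLKi replicate 3 was lowest for Cenpe, at 0.481 nRPKM against 0.544 to 0.547.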

How the results depend on the processing

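The labels carry no replicate or animal numbers, but the sample numbers in the titles run in 8 consecutive pairs of 1 crushed and 1 uncrushed library of the same drug, and no label says that such libraries share an animal. Deviations from the group means correlated at 0.045 to 0.438 across genes within these pairs, over 0.1 in 7 of 8. Each library was compared only with the 3 or 5 libraries of the same drug and the other crush state. Among these, 14 of 16 libraries correlated best with their own pair, a hint from the data and not from the design. With these pairs as a replicate block, chosen after seeing the data, edgeR called 6 members with vehicle in place of 4, 14 with inhibitor in place of 7, 16 over both drugs in place of 11 and 0 for the difference, all higher, and 1234, 2080 and 2818 of all genes in the crush comparisons in place of 510, 1034 and 1639. Of the named calls only that of Kif23 over both drugs ended (edgeR adjusted p = 0.0616). The inhibitor effects lie between pairs and were not fitted with this block. The calls of Top2a in all 3 crush comparisons, of Mki67 and Cdc20 with inhibitor and of Mki67, Rrm2, Mcm2, Mcm3, Ube2c and Cenpe over both drugs held under every alternative that gave a value. With vehicle, the 4 members called became 2 with only the 2 groups compared, 1 without the 2 shallowest vehicle libraries, 1 without the 3 libraries richest in lens transcripts, and 1 to 4 when 1 library was left out. With inhibitor, the 7 became 4 with at least 1 CPM in 3 libraries, where fewer genes are tested, 3 without the lens-rich libraries and 4 to 8 when 1 library was left out. Over both drugs, the 11 became 6 with at least 1 CPM, 8 without the shallowest and 8 without the lens-rich libraries and 8 to 12 when 1 library was left out. For the inhibitor in uncrushed retina the 0 became 1 with DESeq2, and the other 0 counts did not move. Pcna with vehicle turned from -0.009 to 0.003 without the 2 shallowest libraries and to between -0.049 and 0.003 when 1 library was left out. Among all genes, the 510 called with vehicle became 281 with only the 2 groups compared, 263 without the lens-rich libraries and 276 to 506 without 1 library, and the 1034 with inhibitor became 620 without the lens-rich libraries. For the inhibitor in crushed retina the 98 calls (25 higher) became 396 (173 higher) with DESeq2, 45 with only 2 groups, 53 without the shallowest libraries and 22 to 144 without 1 library. In uncrushed retina the 122 (51 higher) became 622 (345 higher) with DESeq2, 110 (30 higher) with upper-quartile factors, 3 with only 2 groups, 11 without the shallowest, 7 without the lens-rich libraries and 17 to 205 without 1 library. The 2 calls of the difference became 5 with DESeq2, 1 without the shallowest and 0 without the lens-rich libraries. Ccnb1, with 0 to 5 reads in each library, could not be tested at this depth. The causes of these shifts were not tested.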
